A study of Macaca radiata with 6 samples.

Results

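The enzymes that turn progestin precursors into androgens and estrogens were followed in the corpus luteum, the ovarian gland that forms from the ovulated follicle, of the bonnet monkey Macaca radiata. They were CYP17A1, CYP19A1, HSD17B1, HSD17B4 and HSD3B2, taken as every probe set whose only annotated symbol was one of these 5. They are 5 of the 14133 genes with a probe set of their own symbol, and hold 8 probe sets of the 52865 in the table, with 3 for HSD17B4, 2 for CYP17A1 and 1 for each of the other genes. The treated monkeys received 3 intramuscular injections of prostaglandin F2-alpha (PGF2alpha), a prostaglandin that brings on luteal regression, at 59 µg per kg body weight, and the others received phosphate-buffered saline as vehicle. All were females on day 10 of the luteal phase, the tissue was taken 24 h after administration in both groups, and each group had 3 arrays (PGF2alpha replicates 1 to 3, vehicle replicates 4 to 6). Strain, genotype and age are not given in the labels, nor is the number of vehicle injections. The labels count 3 animals per group without tying arrays to animals, so the p-values measure only the spread between these 6 arrays.

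In the primate ovary, androgen and estrogen are made by cells of different origin that work together. Theca-derived cells carry CYP17A1, which makes androgen precursors from progestins, and granulosa-derived cells carry CYP19A1, the aromatase that turns androgens into estrogens. HSD3B2 acts upstream of both branches and also makes progesterone itself, HSD17B1 reduces estrone to the more potent estradiol, and HSD17B4 runs the opposite way, oxidising estradiol, besides its work in the breakdown of long-chain fatty acids in peroxisomes.

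RNA of the tissue was hybridised to a chip designed for the rhesus macaque, another macaque species, so a probe set can read low in both groups where its sequence differs. Values are linear MAS5 signals per probe set, in arbitrary units, and signals of different probe sets are not compared with each other. For the marker lists they are summed per array, so the brightest probe sets weigh most in those sums. Array medians lay between 115 and 134, and no array stood apart in them. The ratio of 3-prime to 5-prime control signals, a check of RNA integrity, spanned 1.73 to 1.78 on PGF2alpha arrays and 1.49 to 2.25 on vehicle arrays for beta-actin (exact permutation test, two-sided, p = 1). For GAPDH it spanned 1.39 to 1.68 on PGF2alpha arrays and 1.41 to 1.73 on vehicle arrays (exact permutation test, p = 1). Of the luteal markers, STAR, which delivers cholesterol to the steroid-making mitochondrion, gave signals of 33832 to 50313 after PGF2alpha and 58817 to 71945 after vehicle. The luteinizing hormone receptor LHCGR, the side chain cleavage enzyme CYP11A1 and the theca hormone INSL3 had no probe set with their symbol and are not analysed here.

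CYP17A1 fell after PGF2alpha, and the other 4 enzymes had negative log2 fold changes that did not pass the test. Tests were made on log2(signal + 40) with limma over the 26944 probe sets that reached the median of their array on at least 3 of the 6 arrays, with Benjamini-Hochberg adjustment over all of them and a threshold of 0.05. Where a gene had several tested probe sets, the brightest stands for it. This called 1351 probe sets (5.01%). Among the 9980 genes tested, 52% had a negative log2 fold change, 2.31% were called lower, and all 3 PGF2alpha arrays lay below all 3 vehicle arrays in 15.1%. Of the 5 enzymes, 4 showed such a separation. HSD17B1 reached the array median only on the 3 vehicle arrays, so it could enter the test only by being higher there. Of the other 4 genes, which were above the median on all 6 arrays, 3 had separate groups and 1 was called. The tissue was measured in bulk, so a smaller share of the cells that hold an enzyme and less of its RNA per cell cannot be told apart.

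**Figure D1:**
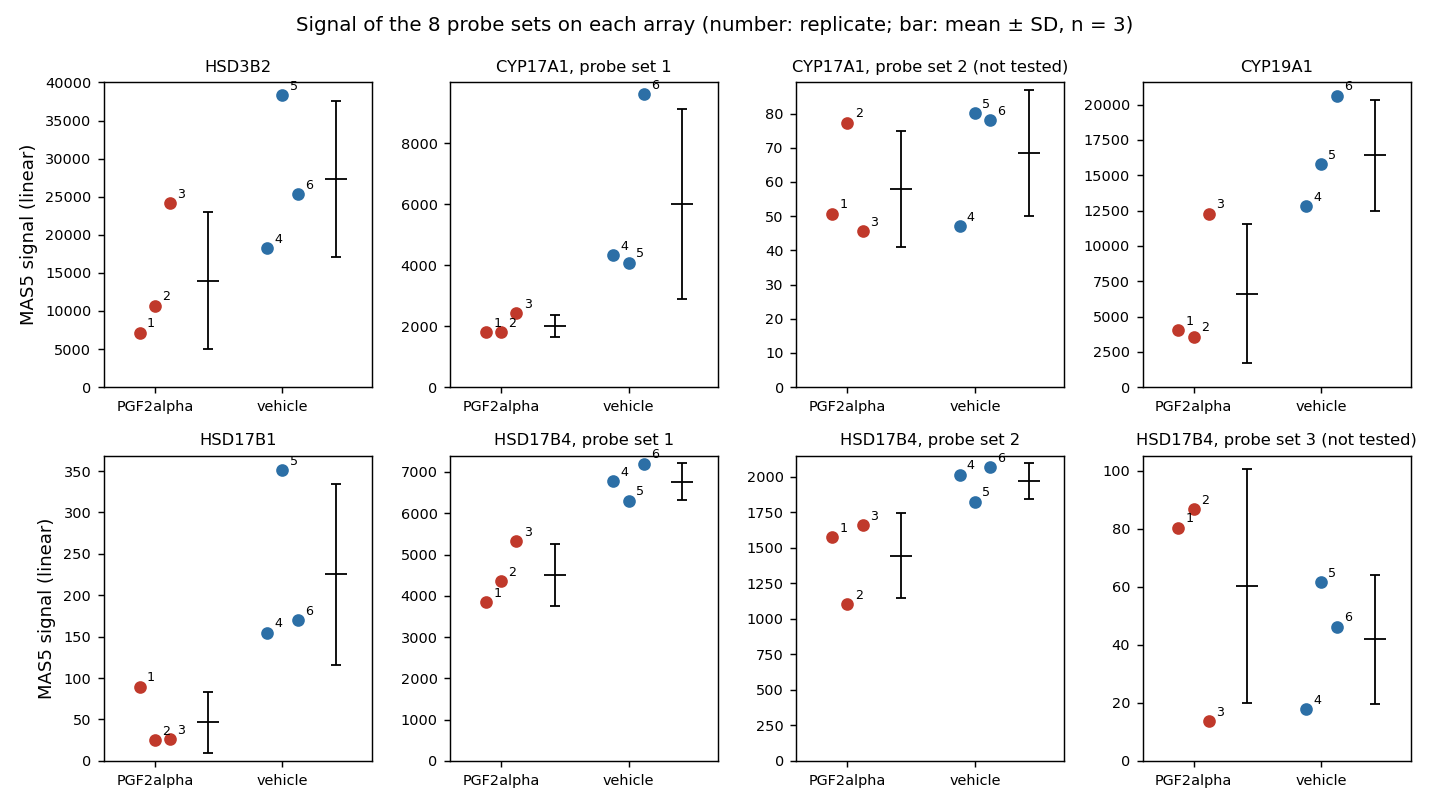
Linear MAS5 signal (vertical axes, each from 0) of the 8 probe sets on each array, with PGF2alpha in red and vehicle in blue, replicate numbers beside the points and mean ± SD (n = 3) as bars. PGF2alpha replicate 3 reached 24159 for HSD3B2, inside the vehicle range, while CYP17A1 in its tested probe set stayed at or below 2426 in all 3 PGF2alpha arrays.

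CYP17A1, the hydroxylase and lyase that opens the way to androgens, had signals of 1804, 1802 and 2426 in PGF2alpha replicates 1, 2 and 3, against 4329.9, 4080.1 and 9601 in vehicle replicates 4, 5 and 6. The groups did not overlap, and the highest PGF2alpha array stood at 59.5% of the lowest vehicle array. The means were 2011 ± 360 after PGF2alpha and 6004 ± 3118 after vehicle (SD, n = 3 each), a log2 fold change of -1.46 (SE 0.303, 95% interval -2.14 to -0.78, limma adjusted p = 0.0299). The wide vehicle spread came from vehicle replicate 6, whose signal was 160% of the vehicle mean. Leaving that array out gave -1.06, and the call held (adjusted p = 0.0408). The call was lost when PGF2alpha replicate 1 was left out (adjusted p = 0.1) or PGF2alpha replicate 2 (adjusted p = 0.113). Its adjusted p ranged from 0.0175 to 0.145 under the alternatives run.

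The other probe set annotated to CYP17A1 read between 45.6 and 77.3 on the PGF2alpha arrays and between 47.1 and 80.0 on the vehicle arrays. These ranges overlapped almost entirely, and every value lay below the median of its array, so the probe set was not tested. Averaging both probe sets brought the log2 fold change to -0.80 (limma adjusted p = 0.0792).

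HSD3B2 stands before CYP17A1 on the way to androstenedione and is also the step that yields progesterone. Its signals were 7118, 10700.3 and 24159 in PGF2alpha replicates 1, 2 and 3, against 18205, 38349 and 25326 in vehicle replicates 4, 5 and 6. Here the groups overlapped, because PGF2alpha replicate 3 exceeded vehicle replicate 4. The means were 13992 ± 8985 after PGF2alpha and 27293 ± 10215 after vehicle (SD, n = 3 each), and the log2 fold change of -1.09 (SE 0.412, 95% interval -2.01 to -0.16) did not pass the limma test after adjustment (adjusted p = 0.172). Without PGF2alpha replicate 3 it was -1.57 with an adjusted p of 0.019, the only alternative of 19 tested that called it, and its adjusted p ran up to 0.404. HSD3B1, the close relative of this enzyme, had no probe set of its own symbol, so whether the HSD3B2 probe set also reads it was not tested.

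CYP19A1, the aromatase, had signals of 4033, 3572 and 12266 in PGF2alpha replicates 1, 2 and 3, against 12824, 15767 and 20636 in vehicle replicates 4, 5 and 6. The groups did not overlap, but PGF2alpha replicate 3 came within 95.7% of the lowest vehicle array, while PGF2alpha replicates 1 and 2 stood at 24.6% and 21.8% of the vehicle mean. The means were 6624 ± 4892 after PGF2alpha and 16409 ± 3946 after vehicle (SD, n = 3 each), with a log2 fold change of -1.51 (SE 0.409, 95% interval -2.44 to -0.59, limma adjusted p = 0.0694). The treated arrays of CYP19A1 spanned 3.43-fold, and its vehicle arrays 1.61-fold. Of 19 alternatives with a test, 3 called CYP19A1, with adjusted p from 0.00116 without PGF2alpha replicate 3 to 0.257.

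HSD17B1, which makes estradiol from estrone, read 89.3, 24.9 and 26.2 in PGF2alpha replicates 1, 2 and 3, against 154.9, 351 and 169.9 in vehicle replicates 4, 5 and 6. Here PGF2alpha replicate 1, not replicate 3, was the treated array nearest to vehicle. The means were 46.8 ± 36.8 after PGF2alpha and 225 ± 109 after vehicle (SD, n = 3 each), with a log2 fold change of -1.62 (SE 0.401, 95% interval -2.52 to -0.71, limma adjusted p = 0.0533). At signals near the added constant the size of this estimate follows that constant, and it was -2.14 with 10 and -0.88 with 160 in place of 40. Because the gene entered the test through its vehicle arrays alone, its difference and its p are given as a description and support nothing further.

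HSD17B4 works in the direction of estradiol removal and in peroxisomal fatty acid oxidation, and it had the smallest estimate of the 5. Its brightest probe set read 3839, 4355 and 5324 in PGF2alpha replicates 1, 2 and 3, against 6782, 6302 and 7202 in vehicle replicates 4, 5 and 6. The groups did not overlap, and the coefficient of variation was 16.7% over the PGF2alpha arrays and 6.66% over the vehicle arrays. The means were 4506 ± 754 after PGF2alpha and 6762 ± 450.5 after vehicle (SD, n = 3 each), with a log2 fold change of -0.59 (SE 0.152, 95% interval -0.93 to -0.25, limma adjusted p = 0.0579). It was called under 3 of 19 alternatives, and its adjusted p ran from 0.0241 without PGF2alpha replicate 3 to 0.318.

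The second HSD17B4 probe set, of a kind that can cross-hybridise by its suffix, gave 1574, 1105 and 1660.4 in PGF2alpha replicates 1, 2 and 3, against 2015, 1825 and 2068 in vehicle replicates 4, 5 and 6. It too had separate groups, with a log2 fold change of -0.45 (SE 0.179, limma adjusted p = 0.186). The third read 80.3, 86.8 and 13.7 after PGF2alpha, against 17.7, 61.6 and 46.3 after vehicle, overlapped between groups and stayed below every array median, so it was not tested. Averaged over all 3 probe sets, the log2 fold change of HSD17B4 was -0.27.

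**Figure D2:**
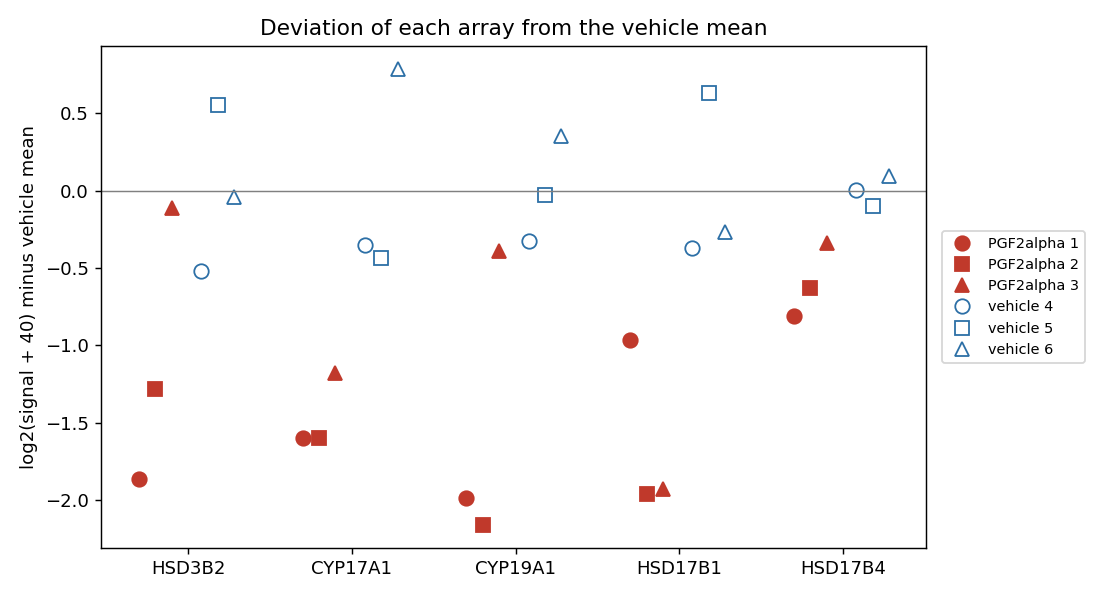
Deviation of each array from the vehicle mean on the log2(signal + 40) scale (vertical axis) for the 5 genes, PGF2alpha arrays as filled red and vehicle arrays as open blue symbols. PGF2alpha replicate 3 (red triangles) lay at -0.11 for HSD3B2 and -0.39 for CYP19A1 but at -1.93 for HSD17B1.

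The treated arrays did not behave alike. PGF2alpha replicate 3 was the highest treated array for 4 of the 5 genes, the exception being HSD17B1. The share of all tested genes with that order was not computed, and the order is not particular to these enzymes. Replicate 3 was also the highest treated array for STAR, FDX1 and CYB5A, and the lowest for TSPO, NPC2 and SLC27A2. Relative to the vehicle mean it kept 88.5% of the HSD3B2 signal, 78.7% of HSD17B4, 74.8% of CYP19A1, 40.4% of CYP17A1 and 11.6% of HSD17B1. PGF2alpha replicate 1 kept 26.1% of the HSD3B2 signal and PGF2alpha replicate 2 kept 39.2%. CYP17A1 was low in all 3 treated arrays, whereas HSD3B2 and CYP19A1 were lowest in PGF2alpha replicates 1 and 2.

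The scanner experiment files record 2 hybridisation times. PGF2alpha replicates 1 and 3 and vehicle replicates 5 and 6 were in the earlier run, and PGF2alpha replicate 2 and vehicle replicate 4 in the later one. Within the earlier and the later run, the differences on the log2 scale were -1.56 and -1.25 for CYP17A1 and -1.35 and -1.83 for CYP19A1. They were -1.25 and -0.76 for HSD3B2, -1.63 and -1.59 for HSD17B1 and -0.57 and -0.63 for HSD17B4. CYP17A1, CYP19A1, HSD3B2 and HSD17B4 were thus lower after PGF2alpha in both runs. HSD17B1 is not counted with them, since it entered the test through its vehicle arrays alone. The later run holds 1 array per group and allows no test. With the run as a block, CYP19A1 was called (limma adjusted p = 0.0494) and CYP17A1 stayed called.

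Whether the genes changed by different amounts was asked over the 10 pairs of the 5 enzymes, as a difference of changes within the same arrays. The 4 pairs with HSD17B1 are not read, since that gene entered through its vehicle arrays alone. CYP19A1 against HSD17B4 gave -0.92 on the log2 scale (exact permutation test, two-sided, p = 0.2, adjusted p = 0.75). CYP17A1 against HSD17B4 gave -0.87, and was the only one of the 10 pairs whose groups did not overlap (exact permutation test, p = 0.1, the smallest that 3 against 3 arrays allow, adjusted p = 0.75). CYP17A1 against CYP19A1 gave 0.05 (exact permutation test, p = 0.9, adjusted p = 1). No pair was shown to differ, and with these group sizes none could have passed 0.05.

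**Figure D3:**
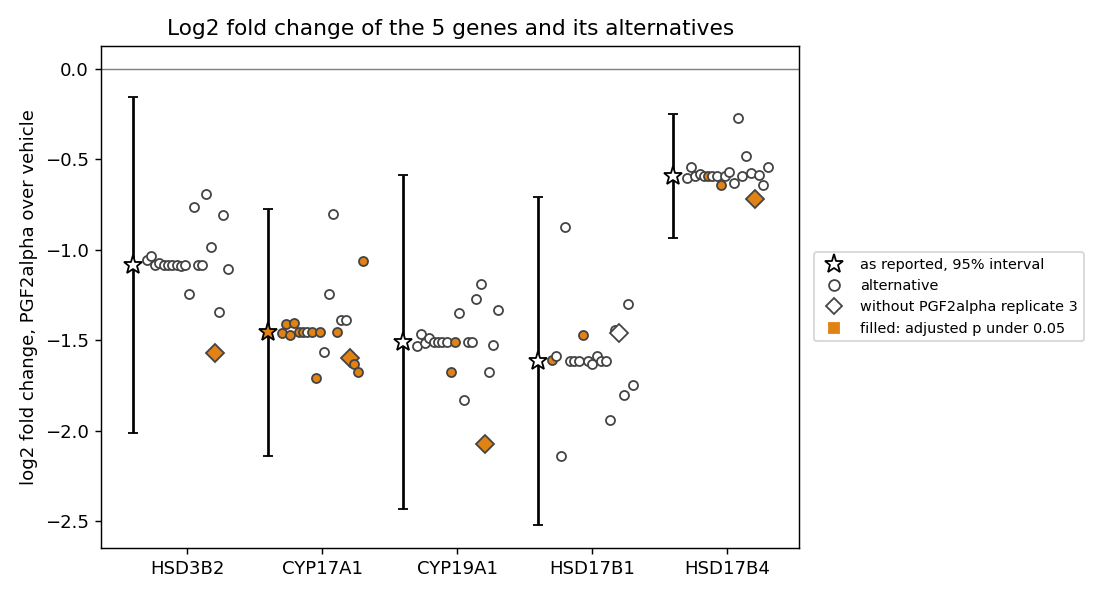
Log2 fold change of PGF2alpha over vehicle (vertical axis) for the 5 genes as reported (stars, with 95% intervals) and under each alternative way of processing (circles), with the fit without PGF2alpha replicate 3 as diamonds and filled symbols for an adjusted p under 0.05. Every estimate lies below 0, but HSD17B1 entered the test through its vehicle arrays alone. CYP17A1 is filled under 14 of 19 tested alternatives, and HSD3B2 under 1.

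Genes around these enzymes were read from lists ordered by their place in the pathway. They held 147 genes, of which 92 had a probe set with their symbol and 76 were tested. Of these, 6 fell (7.89%) and 3 rose (3.95%), against 2.31% and 3.76% of all tested genes, and 67 did not pass. The median log2 fold change over the 76 was -0.19, and over all genes it was -0.02.

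Among the electron donors, listed together with side chain cleavage, 1 of 8 tested genes fell and 0 rose, with a median of -0.47. The steroid-making enzymes of that list, CYP11A1 and HSD3B1, had no probe set with their symbol and are not among the 8. The gene that fell was CYB5A, cytochrome b5, the partner that stimulates the lyase step of CYP17A1. Its signals were 8701, 7757 and 12274 in PGF2alpha replicates 1, 2 and 3, against 16912, 19707 and 15276 in vehicle replicates 4, 5 and 6, with separate groups and a log2 fold change of -0.87 (SE 0.184, limma adjusted p = 0.0315). Its other probe set gave -0.86 (limma adjusted p = 0.0533). Leaving out PGF2alpha replicate 1 (adjusted p = 0.11) or 2 (0.114), or vehicle replicate 4 (0.0847), 5 (0.0881) or 6 (0.0713), removed the CYB5A call. So did testing by limma without a filter (adjusted p = 0.0684), without a variance trend (0.0764) or within the earlier run (0.215).

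FDX1, the ferredoxin that feeds electrons to the mitochondrial steroid P450 enzymes, averaged 19922 ± 8764 after PGF2alpha and 35805 ± 2964 after vehicle (SD, n = 3 each), and its log2 fold change of -0.93 did not pass (limma adjusted p = 0.0694). POR, the reductase that serves CYP17A1 and CYP19A1, stood at -0.53 (limma adjusted p = 0.0995) in its brightest probe set and was chosen for its role after its values were seen. Its 3 other probe sets gave 0.59, 0.05 and -0.00, so they do not share a direction.

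Of the other members and relatives of the HSD17B family, 4 of 14 listed genes were tested, 1 fell and 0 rose. HSD17B8, known to oxidise estradiol and to take part in mitochondrial fatty acid synthesis, fell by 0.76 on the log2 scale (limma adjusted p = 0.032). Its signals were 828, 754 and 883 in PGF2alpha replicates 1, 2 and 3, against 1516, 1195 and 1557 in vehicle replicates 4, 5 and 6, with no overlap. Its call was lost when PGF2alpha replicate 1 (adjusted p = 0.0958) or 2 (0.115) or vehicle replicate 4 (0.0999) or 6 (0.127) was left out. It was also lost by limma after scaling to one median (adjusted p = 0.0554), without a variance trend (0.0611) or within the earlier run (0.245). HSDL2, a peroxisomal dehydrogenase of this superfamily, stood at -0.71 (limma adjusted p = 0.166), and its other probe set was called lower (-0.98, limma adjusted p = 0.0401). HSD17B7, which acts on estrone and in cholesterol synthesis and was chosen after its values were seen, read 0.04 and did not pass. HSD17B2 and HSD17B13 had a probe set below the brightness filter and were not tested.

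Among genes of steroid reduction, hydroxylation and conjugation, 1 of 5 tested fell and 0 rose, with a median of -0.27. It was the probe set annotated to CYP11B1, a hydroxylase best known from the adrenal cortex. It read 197.7, 200.4 and 240.0 in PGF2alpha replicates 1, 2 and 3, against 766, 1873 and 1052 in vehicle replicates 4, 5 and 6, and the log2 fold change was -2.24 (SE 0.286, limma adjusted p = 0.00648). The other probe set of CYP11B1 was called in the same direction (-1.01, limma adjusted p = 0.0328). CYP1B1, which hydroxylates estrogens, stood at 0.88 and did not pass (limma adjusted p = 0.0919). It was called with the hybridisation run as a block (adjusted p = 0.0327) and as the mean over its probe sets (1.11, adjusted p = 0.0264). Its 2 other probe sets were called higher, at 1.28 (limma adjusted p = 0.0159) and 1.16 (limma adjusted p = 0.0275).

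Cholesterol delivery, the supply line of all steroid synthesis, had no common direction, with 1 of 10 tested genes lower, 2 higher and a median of 0.02. STAR fell by 0.67 on the log2 scale (limma adjusted p = 0.0497). The mitochondrial protein TSPO rose by 0.92 (limma adjusted p = 0.0257, other probe set 0.10) and the lysosomal sterol carrier NPC2 rose by 0.88 (limma adjusted p = 0.0276). Blocking on the hybridisation run removed the STAR call (adjusted p = 0.0572), as did testing without a filter (0.193), without a variance trend (0.12), after scaling to one median (0.059) or with a constant of 10 (0.0509). All 3 calls depended on single arrays: STAR was not called when any array but PGF2alpha replicate 3 was left out (adjusted p 0.0983 to 0.169). TSPO (0.0636 to 0.102) and NPC2 (0.0635 to 0.103) were not called when PGF2alpha replicate 1 or 2 or vehicle replicate 5 or 6 was left out. Limma without a variance trend also removed both calls (adjusted p = 0.0551 for TSPO and 0.069 for NPC2).

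Neither the hormone receptors nor the regulators gave a call without the hybridisation run as a block. Of 9 tested steroid receptors and co-regulators, 0 passed by limma (2 at an unadjusted p under 0.05), with a median of 0.20. NRIP1, a corepressor of nuclear receptors, had the smallest p (0.45, limma adjusted p = 0.0949), followed by the corepressor NCOR1 (0.37, limma adjusted p = 0.22). ESR1 had a probe set below the brightness filter and was not tested. Of 19 tested regulators of steroid enzyme genes 0 passed by limma (6 at an unadjusted p under 0.05), with a median of -0.35. ATF3, a stress-induced transcription factor, stood at 1.25 (limma adjusted p = 0.0878, and 0.0289, a call, with the run as a block) with its other probe set at 0.12, and GATA6, an activator of steroid enzyme promoters, at -0.69 (limma adjusted p = 0.0969).

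Peroxisomal genes were listed because HSD17B4 is part of that organelle's fatty acid oxidation. Of 21 tested, 2 fell and 1 rose, 18 had a negative log2 fold change and the median was -0.20. PECR, a reductase of unsaturated fatty acids, read 402, 385 and 542 in PGF2alpha replicates 1, 2 and 3, against 1359, 987 and 914 in vehicle replicates 4, 5 and 6, a log2 fold change of -1.22 (SE 0.202, limma adjusted p = 0.0147). A further PECR probe set gave -1.62 (limma adjusted p = 0.0255). Leaving out PGF2alpha replicate 1 (adjusted p = 0.0582) or 2 (0.0666) removed the PECR call. PHYH, which starts the breakdown of branched phytanic acid, fell by 1.06 (limma adjusted p = 0.0237), to 1041 ± 293 after PGF2alpha, against 2175 ± 247 after vehicle (SD, n = 3 each). Its call was lost when any array but PGF2alpha replicate 3 was left out (adjusted p 0.0504 to 0.0862). It was also lost by limma without a variance trend (adjusted p = 0.0523). SLC27A2, a fatty acid transporter and acyl-CoA synthetase, went the other way and rose by 1.94 (limma adjusted p = 0.012), with signals of 11966, 8539.6 and 5269.8 in PGF2alpha replicates 1, 2 and 3, against 2897, 1613 and 1943 in vehicle replicates 4, 5 and 6. Without PGF2alpha replicate 2 its adjusted p was 0.059.

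**Figure D4:**
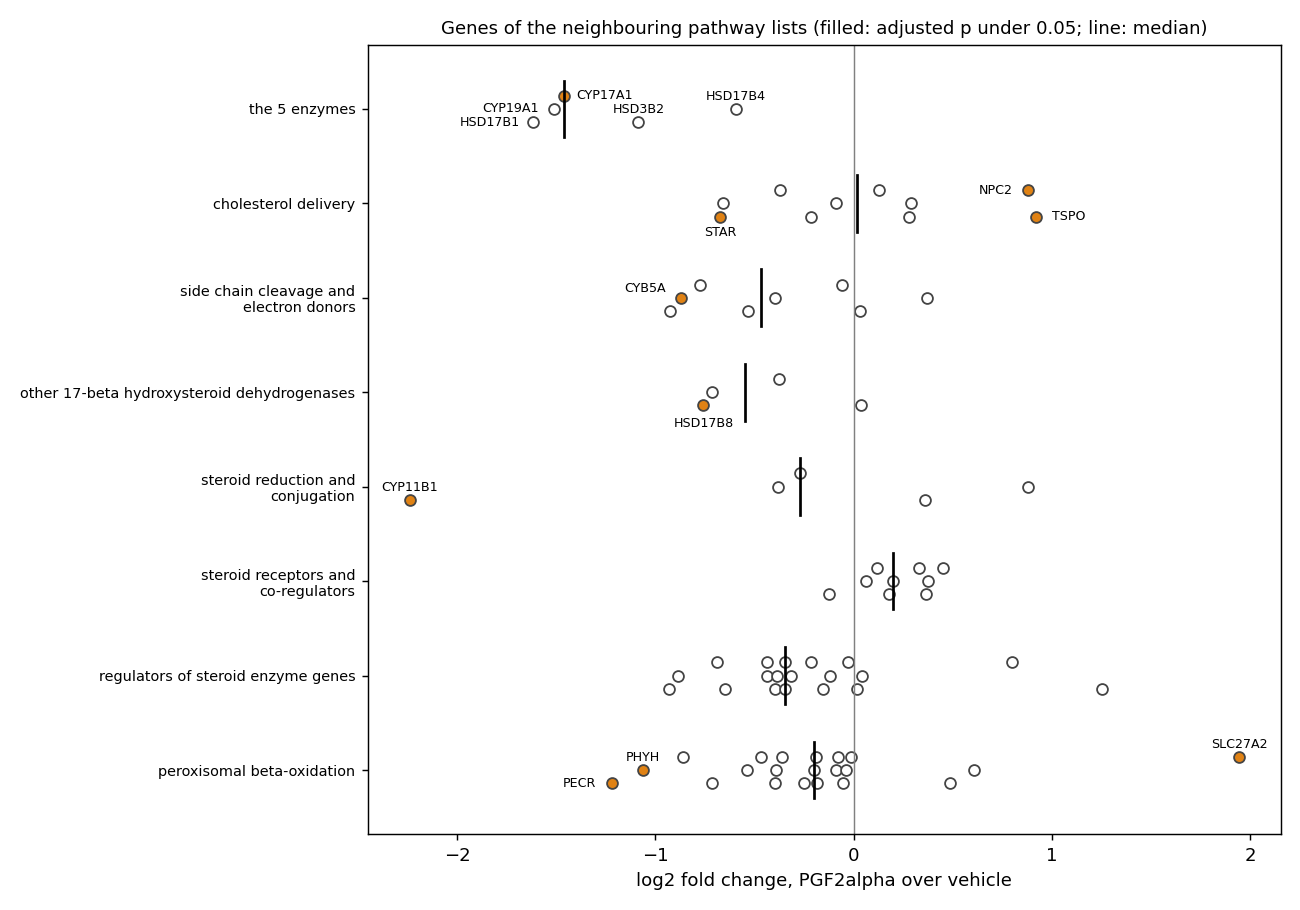
Log2 fold change of PGF2alpha over vehicle (horizontal axis) for the tested genes of each list (rows), with the 5 enzymes on top, filled circles for an adjusted p under 0.05 and black lines for medians. The 5 enzymes have a median of -1.46, or -1.27 over the 4 without HSD17B1, which entered through its vehicle arrays alone, and the list medians run from -0.55 for the other HSD17B genes and relatives to 0.20 for receptors and co-regulators.

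Cell type markers were also read, by calls and by summed signal. Of 17 listed macrophage markers 15 were tested, 7 rose and 0 fell, against 3.76% of all tested genes called higher and 2.31% called lower. MARCO, 1 of the 7, reached the array median only on the PGF2alpha arrays. It could enter the test only by being higher there, so its rise supports nothing further. The summed signal of the 15 was 54236 to 88263 on PGF2alpha arrays and 21789 to 37082 on vehicle arrays. LYZ, which was not called (limma adjusted p = 0.104), gave 24759 to 52127 of it on PGF2alpha arrays and 12460 to 21139 on vehicle arrays. Of 14 granulosa-lutein markers 9 were tested, 1 fell (GSTA3) and 0 rose, and their summed signal was 50398 to 83248 on PGF2alpha arrays and 93166 to 108012 on vehicle arrays. Without GSTA3, left out after its values were seen, the sums overlapped, at 44262 to 65999 on PGF2alpha arrays and 65780 to 81168 on vehicle arrays. With GSTA3 included, PGF2alpha replicate 3 had the highest granulosa-lutein sum of the treated arrays. Without GSTA3 it was PGF2alpha replicate 2 (65999, against 65713 in PGF2alpha replicate 3). Only 3 of 9 theca-lutein markers were tested: STAR fell (-0.67), DCN rose (0.64, limma adjusted p = 0.0421) and COL1A2 did not pass. DCN and COL1A2 are also on the fibroblast list, and STAR was read above as a luteal marker and a cholesterol delivery gene. The 3 tested genes therefore do not tell theca-lutein cells apart from other cells. With calls in both directions, the theca-lutein sums overlapped, at 106520 to 112856 on PGF2alpha arrays and 105048 to 133956 on vehicle arrays. No tested marker of these lists was at 0, and the lowest signal among the macrophage markers was 21.1. The part of these shifts in the values of the 5 enzymes was not tested.

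Genes with the pattern most like each enzyme were named by the highest Pearson correlation of log2(signal + 40) over the 6 arrays, among other tested genes that ranged over at least 1 on that scale. The 6 arrays fall into the 2 treatment groups, so the correlations also carry the group difference and are a description. CYP17A1 was most like MLH3 (r = 0.973), H3C1 (r = 0.971) and NEURL3 (r = 0.970). CYP19A1 was most like ADAMTS5 (r = 0.988), a protease of the extracellular matrix, TCF3 (r = 0.987) and KCTD8 (r = 0.986). HSD17B1 was most like HEPH (r = 0.986), SIMC1 (r = 0.983) and LOC714145 (r = 0.978). HSD17B4 was most like NUP58 (r = 0.994), YEATS4 (r = 0.992) and SAMD9L (r = 0.988), whose log2 fold changes were -0.82, -0.88 and -1.37. HSD3B2 was most like LOC719180 (r = 0.995), LOC712957 (r = 0.992) and MRAP (r = 0.978), the accessory protein of the adrenocorticotropin receptor.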

How the data were processed

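Total RNA was labelled with biotin and hybridised to the Rhesus chip type, per the file headers of the scanner experiment files. The authors deposited linear signal intensity values per probe set, made with MAS5, per the labels. Scaling settings are not given in the sources used here. The arrays shared a trimmed mean of 500.0 (2% removed from either end), and no further normalization was applied. Symbols came from a platform annotation that can be old, which gave 1 symbol to 24969 probe sets, several to 361 and none to 27535. The 99 control probe sets entered no test. No genome or sequence table was used here.

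All log2 fold changes include the constant 40, which makes those of dim probe sets too small. Testing required the median of the array to be reached on at least 3 of 6 arrays. Groups were compared with limma 3.58.1 in R 4.3.3 (lmFit, eBayes with variance trend, two-sided, threshold 0.05). Named were the 5 enzymes, the genes of each pathway list past the threshold and the 2 of smallest p in each, and the 3 genes most like each enzyme. Markers of theca-lutein, granulosa-lutein, macrophage, neutrophil, lymphocyte, endothelial, fibroblast, smooth muscle and red cells gave counts. The enzymes, lists and tests were chosen with earlier results of these data known. On simulated data for this comparison over 26944 probe sets, 32% of the genes changed 2-fold were called, as were 73% of those changed 4-fold, and 1 of 106 calls was false. The alternatives were other normalizations, added constants, filters, variance models, probe set choices, the hybridisation run, and leaving out each array. Detection calls were not used, and the number of arrays limits the precision.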

Additional observations from a re-analysis of the deposited data

How the results depend on the processing

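The log2 fold change of each of the 5 enzymes stayed negative under every alternative run (20 each, and 19 for HSD17B1, which the filter at the 70th percentile removed). HSD17B1 entered the test through its vehicle arrays alone, so its sign and its calls below support nothing further. Without it, CYP17A1 was the only enzyme called with quantile normalization. Of the enzymes, 2 were called with quantile normalization (HSD17B1 joined at -1.61, adjusted p = 0.04997), 2 with that filter (HSD17B4, -0.59, adjusted p = 0.049), 2 with the hybridisation run as a block (CYP19A1, -1.51) and 4 with array weights (CYP19A1 at -1.68, HSD17B1 at -1.47, HSD17B4 at -0.64). None was called by limma without a variance trend (CYP17A1 at -1.46, adjusted p = 0.0637), within the earlier run (CYP17A1 at -1.56, adjusted p = 0.145) or with the mean over all probe sets of a gene (CYP17A1 at -0.80). Leaving out single arrays gave 0 to 4 called enzymes, with log2 fold changes of -1.68 to -1.06 for CYP17A1, -2.07 to -1.19 for CYP19A1, -1.94 to -1.30 for HSD17B1, -0.72 to -0.48 for HSD17B4 and -1.57 to -0.69 for HSD3B2. The 4 were called without PGF2alpha replicate 3, and 0 without PGF2alpha replicate 1 or 2. The 9 called pathway genes became 3 without a variance trend and 1 within the earlier run, and 1 to 11 when single arrays were left out. The 1351 called probe sets became 826 without a filter, 669 without a variance trend, 51 within the earlier run and 791 with the mean over probe sets, and 223 (without PGF2alpha replicate 2) to 1903 (without PGF2alpha replicate 3) when single arrays were left out. The smallest adjusted p of the 10 pairs ran from 0.333 to 0.9 over those. No paired analysis was possible because the groups share no replicate number. Low signals limit HSD17B1 and the untested probe sets.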

Other observations

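Markers of further cell types gave these counts by limma. All 4 tested neutrophil markers rose, of 10 listed, against 3.76% of all tested genes called higher. Of the vehicle arrays, S100A8 reached the median only on replicate 6 and S100A9 only on replicate 4. Both thus passed the filter through the PGF2alpha arrays where they are high, so their rise supports nothing further. S100A12, CSF3R, ELANE and MPO had a probe set below the brightness filter and were not tested. Of 9 tested fibroblast markers 4 rose and 0 fell, of 4 lymphocyte markers 1 rose, of 11 endothelial markers 1 rose, and 0 of 5 smooth muscle markers and 0 of 3 red cell markers passed (1 of each at an unadjusted p under 0.05). Of the smooth muscle genes, TPM2 had 2 further probe sets that were called higher, at 2.02 (limma adjusted p = 0.0126) and 2.19 (limma adjusted p = 0.0222), while its brightest one stood at 0.31. Its remaining tested probe sets, at -0.20, -0.54 and 0.30, did not pass, so the TPM2 probe sets do not share a direction.

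Within the granulosa-lutein markers, GSTA3 (named after its values were seen), a glutathione transferase that also isomerises steroids, fell by 1.53 on the log2 scale (limma adjusted p = 0.029). Its signals were 6135, 8536 and 17535 in PGF2alpha replicates 1, 2 and 3, against 26844, 30066 and 27386 in vehicle replicates 4, 5 and 6. Here too PGF2alpha replicate 3 was the treated array nearest to vehicle, as for CYP19A1 and HSD3B2. HSD11B1, the glucocorticoid-regenerating enzyme of luteinised granulosa cells, averaged 19529 ± 7059 after PGF2alpha and 22674 ± 4693 after vehicle (SD, n = 3 each), and did not pass (limma adjusted p = 0.641).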
